A study of Mus musculus with 58 samples.

Results

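The J-domain co-chaperones, also called Hsp40 proteins, were followed across the lung, liver and forestomach of mice dosed with BaA, benz(a)anthracene, which belongs to the polycyclic aromatic hydrocarbons. The 9 genes described are Dnaja1, Dnaja2, Dnaja4, Dnajb1, Dnajb2, Dnajb4, Dnajb6, Dnajb9 and Dnajc3, taken by name from the 20018 genes that the array's probes could be matched to. The array held 17 probes for them, and each is reported. The genes were chosen by what was known of their changes from the vehicle group in the 3 tissues from earlier results of these arrays, so those changes are given as a description and carry no p-value. The differences between tissues in vehicle mice were not what that choice rested on, and they were tested. The vehicle arrays are also the baseline of those changes, so these tests are not independent of the choice.

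The animals were adult male Muta™Mouse, a transgenic strain that carries a bacterial reporter gene for mutation assays, about 10 weeks old and housed one to a cage. BaA in olive oil was given by oral gavage on each of 28 days at 20, 40 or 80 mg/kg-bw/day (groups D1, D2 and D3), and the vehicle group (D0) received olive oil alone. Tissues were taken 72 h after the last dose, from the right lung lobe, the left liver lobe and the forestomach, and RNA came from random slices of whole tissue, so a lower ratio can mean fewer cells of a type or less RNA per cell, which cannot be told apart. Each of the 58 arrays compared 1 tissue RNA, labelled with Cy5, with a common pool of RNA from mouse cell lines, labelled with Cy3. There were 5 arrays per group, except 4 for D3 liver and 4 for D0 forestomach. All values below are log2 ratios of tissue RNA to that pool, and a change is the mean of a dose group minus the mean of its D0 group on that scale. The dyes were never swapped, so differences between groups are used and not the ratio itself.

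J-domain proteins recruit Hsp70 chaperones to their clients and trigger ATP hydrolysis by Hsp70, which locks the client in place. Dnaja1, Dnaja2 and Dnaja4 belong to the type A family of the cytosol, and Dnajb1, Dnajb2, Dnajb4 and Dnajb6 to the type B family. Dnajb9 and Dnajc3 work with the Hsp70 protein BiP in the endoplasmic reticulum (ER). Several members are induced by heat shock factor 1 when proteins misfold in the cytosol, and Dnajb9 and Dnajc3 by the unfolded protein response of the ER.

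The promoter windows of the 2 genes that changed past the threshold, and of the 1 gene with an ER stress element, are shown because the members differ in the letters they hold. For Dnaja1 and Dnajb1 it is the first of 3 and of 2 windows. Windows run from 250 bases before to 50 bases after a start site (RefSeq, GRCm38.p6), and all 9 genes matched, with 16 windows between them. The letters searched were the paired heat shock units GAANNTTC and TTCNNGAA, each of which reads the same on both strands, and on both strands the ER stress response elements, which are CCAAT and CCACG 9 bases apart and ATTGG and CCACG 1 base apart. Matches may overlap. Capitals mark the matches.
Dnaja1, chr4:40722218-40722517, plus strand: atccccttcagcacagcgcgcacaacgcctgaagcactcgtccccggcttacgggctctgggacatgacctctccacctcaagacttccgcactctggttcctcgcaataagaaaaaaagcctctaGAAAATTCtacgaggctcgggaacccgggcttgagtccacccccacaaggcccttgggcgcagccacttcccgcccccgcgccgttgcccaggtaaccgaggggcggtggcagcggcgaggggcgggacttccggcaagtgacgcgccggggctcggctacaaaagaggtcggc
Dnajb1, chr8:83607925-83608224, plus strand: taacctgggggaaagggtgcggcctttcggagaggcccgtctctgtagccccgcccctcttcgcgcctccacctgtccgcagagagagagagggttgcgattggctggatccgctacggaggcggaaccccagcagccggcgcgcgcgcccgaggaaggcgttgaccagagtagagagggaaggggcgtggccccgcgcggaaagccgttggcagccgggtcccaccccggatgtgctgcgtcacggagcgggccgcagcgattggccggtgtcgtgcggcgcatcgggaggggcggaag
Dnajc3, chr14:118937682-118937981, plus strand: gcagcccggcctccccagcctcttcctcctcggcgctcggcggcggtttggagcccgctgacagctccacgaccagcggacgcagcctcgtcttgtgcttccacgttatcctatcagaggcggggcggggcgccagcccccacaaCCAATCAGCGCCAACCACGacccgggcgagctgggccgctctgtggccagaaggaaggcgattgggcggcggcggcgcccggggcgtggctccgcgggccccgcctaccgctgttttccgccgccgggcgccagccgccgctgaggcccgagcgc

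The match in Dnaja1 begins 124 bases before the start site and that in Dnajc3 begins 105 bases before it. A paired heat shock unit was also found in single windows of Dnaja4 and Dnajb4 and in both windows of Dnajb6, where 2 matches overlap; each is given with the bases around it.
Dnaja4, chr9:54699458-54699487, plus strand: ggaacctccgcGAACGTTCtgggcctatgt
Dnaja4, chr9:54699496-54699525, plus strand: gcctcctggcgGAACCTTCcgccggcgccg
Dnajb4, chr3:152193841-152193870, minus strand: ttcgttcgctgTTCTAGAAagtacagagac
Dnajb6, chr5:29735841-29735870, plus strand: ctcagctccgaGAATCTTCcggaacgctag
Dnajb6, chr5:29735846-29735875, plus strand: ctccgagaatcTTCCGGAAcgctagaccag
Of 32851 promoter windows in the table, 15.1% held at least 1 of the heat shock units, against 5 of the 16 windows of these genes. Both windows of Dnajb6 overlap and hold the same matches, so these 5 windows stand for 4 genes. The longer ER stress element was in 0.119% of all windows and in 1 of the 16, that of Dnajc3, and the shorter one in 0.0365% of all windows and none of the 16. Neither window of Dnajb1 held any of these letters, which says nothing of sites outside the 300 bases. A match is a run of letters, not a measured site.

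On 20 lung, 19 liver and 19 forestomach arrays, 42.9% to 53.8%, 32.8% to 44.7% and 36.8% to 68.5% of probes were well above background in the tissue channel, the Feature Extraction software's own call. The 5 lung markers and the 5 liver markers were well above background on every array of their tissue, and at least 4 of 5 squamous epithelium markers on every forestomach array. Several arrays also carried markers of another tissue. The mean log2 ratio of the squamous markers was 3.94 on the lung array of mouse 5 (D0) and 1.66 on that of mouse 16 (D3), against 0.19 or less on the other lung arrays, and that of 5 fat markers was 5.02 on the lung array of mouse 14 (D2). In forestomach, the mean of 7 glandular stomach markers ran from 0.94 to 6.50, with group medians of 1.18 at D0, 5.67 at D1, 2.29 at D2 and 3.22 at D3, and fat markers had medians of 3.99 at D0 and 0.95 at D3. The mean of the 5 liver markers ran from 0.41 to 3.54 on the forestomach arrays, with 2 to 5 of 5 well above background and group medians of 0.70, 2.28, 2.96 and 1.56 at D0, D1, D2 and D3. Comparisons with lung were refitted without the lung arrays of mice 5, 14 and 16. Those with forestomach, except at D1, were refitted without the 10 forestomach arrays with a glandular marker mean above 4. In these refits 27 and 18 dose changes of brightest probes moved by less than the SD between mice, and 8 and 10 called vehicle differences were called again. The part of the fat and liver markers in forestomach was not tested.

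All 17 probes passed the filter on dim signals in lung and forestomach, and 16 passed in liver, where the dimmer Dnaja4 probe was well above background on 1 array. None was saturated. A probe was called where its p-value, adjusted by Benjamini-Hochberg over all probes tested, did not exceed 0.05 and its fold was at least 1.5. In the lung no member was called at D1 by limma, where 0% of 30399 probes were. An unadjusted p under 0.05 was found for 7 of 17 member probes and 2267 of all probes. At D2, 3 member probes were called lower (0.0724% of all probes were), and at D3 again 3 (0.566% of all probes). In the liver no member was called at D1, where 0.237% of 22815 probes were called lower. There 3 of 16 member probes and 1717 of all probes had an unadjusted p under 0.05. In the same tissue 1 member probe was called lower at D2 (0.548% of all probes) and at D3 (0.359%). In the forestomach no member was called at D1, D2 or D3, where 0%, 0.0124% and 0.0247% of 32342 probes were called in either direction. Of 17 member probes 3, 5 and 8 had an unadjusted p under 0.05, as did 1428, 1064 and 1652 of all probes. These counts come from the contrasts that the choice of genes rested on, and they are a description.

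**Figure D1:**
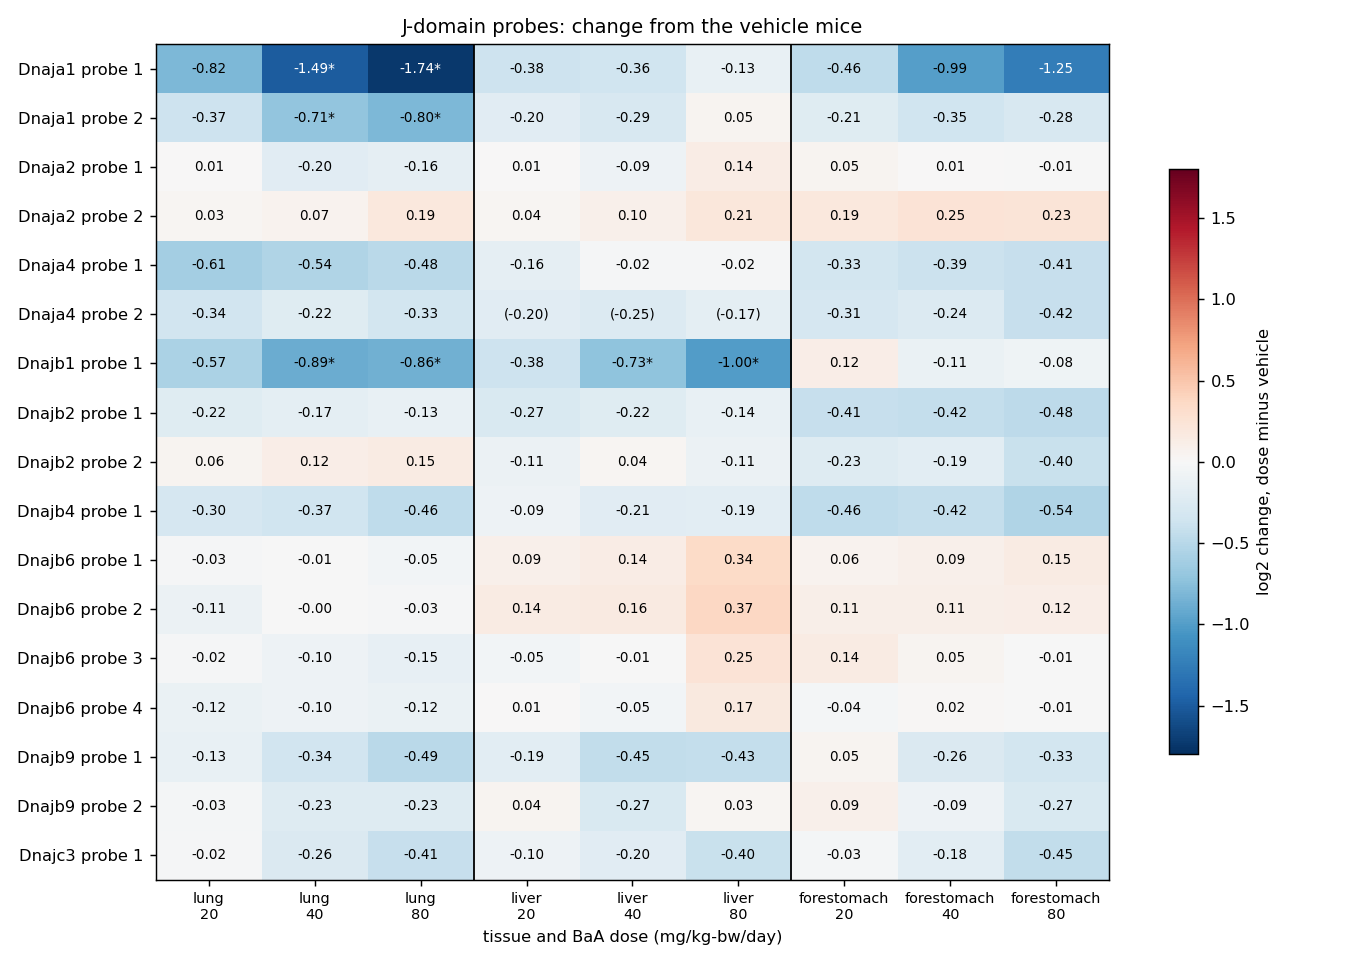
Change of each of the 17 probes (rows, numbered by brightness within a gene) from the vehicle group, in log2 units, for each tissue and BaA dose (columns, mg/kg-bw/day). An asterisk marks a called probe and brackets mark a probe not tested in that tissue. The darkest cells are Dnaja1 in lung, at -1.49 and -1.74, and the asterisks fall on Dnaja1 in lung and on Dnajb1 in lung and liver.

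Dnaja1, which presents unfolded proteins to the constitutive Hsp70, had the largest difference of the 9 genes, and it lay in the lung. Its brighter probe read 1.94, 1.43, 1.83, 1.40 and 1.01 in the D0 lungs and 1.04, 0.76, 0.55, 0.94 and 0.24 in the D1 lungs. At D2 the lungs read 0.15, 0.19, -0.09, 0.23 and -0.34, and at D3 they read -0.24, -0.20, -0.20, -0.20 and -0.25. Every D2 and D3 lung lay below every D0 lung, while D1 overlapped D0 by 1 array. The changes were -0.82 ± 0.16 (SE) at D1, -1.49 ± 0.16 at D2 and -1.74 ± 0.16 at D3, the last a 3.34-fold difference. Across all probes, 0.461%, 1.2% and 2.63% had every dosed lung below every D0 lung at D1, D2 and D3. The spread between mice was 0.37 (SD) at D0 and 0.03 at D3. The second Dnaja1 probe, listed under the same transcript and about 7 log2 units dimmer, gave smaller changes of -0.37, -0.71 and -0.80, and was called at D2 and D3 as well.

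Each slide held arrays of a single tissue at all doses, and within the 3 lung slides the Dnaja1 change at D3 was -1.43, -2.03 and -1.91. Without the lung arrays of mice 5, 14 and 16 the change was -1.67 at D2 and -1.86 at D3, and 3 member probes, of Dnaja1 and Dnajb1, were again called at each of these doses. Without mouse 5 of D0 alone, the array with squamous markers, Dnaja1 was also called at D1, which it was not with all 3 arrays left out. Scaling arrays by their median in place of loess, which follows the ratio along brightness, left no lung probe called at any dose and moved the median of all probes by 0.18, 0.38 and 0.15 at D1, D2 and D3. Relative to that median the Dnaja1 change was then -0.62, -1.17 and -1.51. In the Cy5 channel alone the D3 change was -1.61, and the reference channel differed by 0.04 between the same arrays.

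In the forestomach, Dnaja1 was lower with dose but the difference did not reach the call. The D0 forestomachs read -0.06, 0.25, 0.78 and -0.39. The D2 arrays read -1.14, -0.81, -1.12, -0.46 and -0.67, and the D3 arrays -1.17, -1.36, -1.47, -0.83 and -0.70. Every D2 and D3 array was below every D0 array, as was true of 0.55% and 1.07% of all probes. The changes were -0.46 ± 0.26 (SE) at D1, -0.99 ± 0.26 at D2 and -1.25 ± 0.26 at D3, and the D0 group was the widest, with an SD of 0.49. The second probe had a change of -0.28 at D3. Without the 10 forestomach arrays that had a glandular marker mean above 4, which left 3 arrays each at D0, D2 and D3 and none at D1, the D3 change was -1.44.

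In the liver, Dnaja1 read 0.95, 0.68, 1.12, 0.97 and 1.19 at D0 and 0.71, 0.88, 1.11 and 0.70 at D3. The groups overlapped, and the change was -0.13 ± 0.19 (SE). At D1 and D2 the liver changes were -0.38 and -0.36. In a model of all 58 arrays the D3 change of Dnaja1 was 1.61 log2 units lower in lung than in liver. Both Dnaja1 probes were called lower on that difference, as were 0.201% of the 21893 probes tested in both tissues. In the Cy5 channel alone the D3 change in liver was -0.29, and the reference channel there differed by -0.22 between the same arrays. Part of the gap to lung thus lay in the reference channel. Between lung and forestomach the D3 changes differed by -0.49 ± 0.30 (SE) and between liver and forestomach by 1.12 ± 0.31, neither of which was called. No member was called on these last differences by limma, where 0.257% and 0.0452% of all probes were. An unadjusted p under 0.05 was found for 3 and 2 member probes, and for 2388 of 28453 and 1532 of 22101 of all probes. These differences are built from the dose contrasts and are a description.

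Dnaja2 and Dnaja4, the other type A members, differed less from D0 and were not called. Dnaja2, a constitutive partner of cytosolic Hsp70, had changes between -0.20 and 0.14 for its brighter probe over the 9 comparisons and between 0.03 and 0.25 for the second, so the 2 probes of 1 transcript did not move alike. In forestomach all arrays of D1, D2 and D3 lay above D0 for the second Dnaja2 probe, as did 0.72%, 0.631% and 0.89% of all probes, for changes of 0.19, 0.25 and 0.23; the D1 spot of mouse 10 was flagged as an outlier and left out, so D1 rests on 4 arrays. Dnaja4, another cytosolic partner of Hsp70, read 4.53, 4.34, 4.65, 4.79 and 4.87 in the D0 lungs. It read 4.31, 3.84, 4.05, 4.16 and 3.77 in the D1 lungs and 4.34, 4.32, 4.18, 4.01 and 3.93 in the D3 lungs. No D1 or D2 lung reached the lowest D0 lung, which held for 0.461% and 1.2% of all probes at these doses, but 1 D3 lung touched that range. The Dnaja4 changes in lung were -0.61 at D1, -0.54 at D2 and -0.48 at D3, and so did not grow with dose. In forestomach the Dnaja4 changes were -0.33 to -0.41 with overlapping groups, and in liver -0.16 to -0.02.

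Dnajb1, the classic stress-induced Hsp40 that pairs with inducible Hsp70, was lower in both lung and liver. The D0 lungs read 0.81, 0.72, 0.43, 0.03 and 0.66. The D2 lungs read -0.67, -0.13, -0.22, -0.20 and -0.57, and the D3 lungs read -0.33, -0.38, -0.45, -0.25 and -0.23. All D2 and D3 lungs lay under the D0 range, which held for 1.2% and 2.63% of all probes at these doses. The changes were -0.57 ± 0.13 (SE) at D1, -0.89 ± 0.13 at D2 and -0.86 ± 0.13 at D3. Dnajb1 was called at D2 and D3. Within slides the D3 change was -0.69, -0.68 and -1.12, and relative to the median of all probes under median scaling it was -0.66.

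In the liver Dnajb1 was lower at each higher dose. The D0 livers read -0.12, -0.56, -0.37, -0.44 and -0.02, and the D1 livers -0.63, -0.33, -0.82, -0.61 and -1.01. The D2 livers read -0.87, -1.12, -0.97, -1.04 and -1.16, and the D3 livers -1.25, -1.39, -1.22 and -1.37. No D2 or D3 liver reached the D0 range, which held for 1.84% and 2.89% of all probes at these doses. The changes were -0.38 ± 0.12 (SE) at D1, -0.73 ± 0.12 at D2 and -1.004 ± 0.12 at D3, the last a 2.01-fold difference, with -0.96, -0.89 and -1.27 within the 3 slides. From the Cy5 channel alone the changes were smaller, at -0.47 at D2 and -0.75 at D3, and the reference channel of the same probe differed by 0.18 at D2 and 0.12 at D3. In forestomach Dnajb1 read 0.94, 0.10, 1.32 and 0.86 at D0 and 0.82, 0.77, 0.72, 0.69 and 0.64 at D3, a change of -0.08 ± 0.20 (SE) with the D3 arrays inside the D0 range. Mouse 2 held the lowest D0 value there, and its glandular marker mean was 5.93 against 1.25 or less on the other 3 D0 arrays. Without mouse 2 the D3 change in forestomach was -0.31, and without mouse 3 it was 0.095. The D3 changes of Dnajb1 were not called different between any tissues, but the lung and liver each differed from forestomach when slide was a term in the model, or when forestomach mouse 3 of D0 was left out.

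The other type B genes of the cytosol stayed below a 1.5-fold difference. Dnajb4, a close relative of Dnajb1, read 0.61, 0.53, 0.42, 0.16 and 0.36 in the D0 lungs and 0.08, -0.08, -0.07, -0.23 and 0.09 in the D3 lungs. The D3 lungs all lay below the D0 lungs, as was true of 2.63% of all probes. Its changes in lung were -0.30, -0.37 and -0.46 at D1, D2 and D3, in forestomach -0.46, -0.42 and -0.54, and in liver -0.09 to -0.21. In forestomach a single D0 array, mouse 3 at 0.91, stood above the others at -0.28 to 0.03, and without it the Dnajb4 changes there were only -0.20, -0.16 and -0.28. Dnajb2, which delivers ubiquitinated clients to the proteasome, had changes in forestomach of -0.41, -0.42 and -0.48 for its first probe and of -0.23, -0.19 and -0.40 for its second, with overlapping groups at D3. In lung its probes went opposite ways at D3, -0.13 and 0.15. Dnajb6, which keeps aggregation-prone proteins soluble, had changes between -0.15 and 0.37 over 4 probes and 9 comparisons. The highest values were in the D3 livers, 0.17 to 0.37 across its probes, and by the brightest of them mouse 16 read -0.76 there and the other 3 read -0.13, -0.22 and 0.05.

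The ER members lay lower at D3 in all 3 tissues by their brighter probes, and none of these differences was called. In lung at D3 both genes were called when no minimum fold was set. Dnajb9, which hands misfolded proteins to ER-associated degradation, had changes of -0.49 in lung, -0.43 in liver and -0.33 in forestomach for its brighter probe, and of -0.23, 0.03 and -0.27 for the other. Leaving out single vehicle livers moved the liver change of the brighter Dnajb9 probe to -0.26 (mouse 3 omitted) or -0.62 (mouse 4 omitted). The D3 lungs read 1.20, 1.72, 1.56, 1.53 and 1.40, against 2.14, 1.96, 2.16, 1.90 and 1.69 at D0, and so overlapped at 1 array. Dnajc3, a BiP partner that also restrains the kinase PERK, had changes of -0.41, -0.40 and -0.45 in lung, liver and forestomach at D3. Its lungs read 2.75, 2.73, 2.75, 2.34 and 2.31 at D0 and 1.98, 2.32, 2.17, 2.06 and 2.30 at D3, so that only mouse 17 entered the D0 range. At D1 the Dnajc3 changes were between -0.10 and -0.02. Under median scaling Dnajb9 and Dnajc3 in lung became 0.22 and 0.31 at D2, or -0.16 and -0.06 relative to the median of all probes.

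Set beside other genes, the 9 members had a median lung change of -0.46 at D3 by their brighter probes, against 0.04 over the 14532 genes tested. All 9 lay below 0, as did 41.9% of all genes. Under median scaling Dnajb2 and Dnajb6 lay above the median of all probes. The other J-domain genes fixed as a list (33 of 40 tested in lung, 30 in liver, 31 in forestomach) had medians of 0.11, 0.02 and 0.035 at D3. None of them was called by limma at any dose in any tissue. At D3 in lung, liver and forestomach 12, 7 and 2 had an unadjusted p under 0.05. So did 3900 of 14532, 1900 of 12062 and 821 of 15108 of all genes tested. The members' medians in liver and forestomach were -0.14 and -0.41, against 0.01 over all genes in each. The members were picked for such changes and the other J-domain genes were not, so the gap between the lists is a description.

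The chaperones that J-domain proteins serve also changed in the lung. The 25 heat shock and Hsp70 or Hsp90 partner genes tested there were all of the cytosol or nucleus except the mitochondrial chaperonins Hspd1 and Hspe1. Of these genes 4 were called lower at D2 and 7 at D3, with none called higher, where 0.0826% and 0.475% of all genes were called lower. At D3 all 25 lay below 0, as did 41.9% of all genes, and the list's median was -0.36. Hspa1a, the stress-inducible Hsp70, fell by 2.95 on the log2 scale, from 2.68 ± 0.79 (SD, n = 5) to -0.27 ± 0.08 (n = 5). Hsph1, a nucleotide exchange factor for Hsp70, fell by 1.41. Hspa8, the constitutive Hsp70, fell by 1.03. The other four, named because they complete the count and not by the rule of size, were Cacybp, Chordc1, Bag3 and Hspd1, which fell by 0.99, 0.95, 0.63 and 0.59. Under median scaling no lung gene was called, but relative to the median of all probes these 7 stayed below 0, from -2.60 for Hspa1a to -0.44 for Hspd1. Of the whole list 20 of 25 genes lay below that median. In forestomach Hspa8 alone was called at D3, lower by 0.88 (0.00662% of all genes were called lower). Of the 24 genes of the list tested there 21 lay below 0, as did 47.4% of all genes, and the list's median was -0.31. Under median scaling no forestomach probe was called at D3, and relative to the median of all probes the Hspa8 change was -0.96. Of the whole list 23 of 24 genes lay below that median. In liver none of 24 was called by limma at any dose, where at most 0.547% of all genes were called lower and 0.0995% higher. The median there at D3 was -0.01. There 3 had an unadjusted p under 0.05, as did 1900 of all 12062 genes tested. Of 21 ER chaperone genes, Manf, a secreted factor of the ER stress response, fell by 0.62 in the D3 lungs and no other was called in any tissue at D3. These lists were drawn up with earlier results of the same arrays known, so their counts and changes are a description, like those of the members, and carry no p-value.

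**Figure D2:**
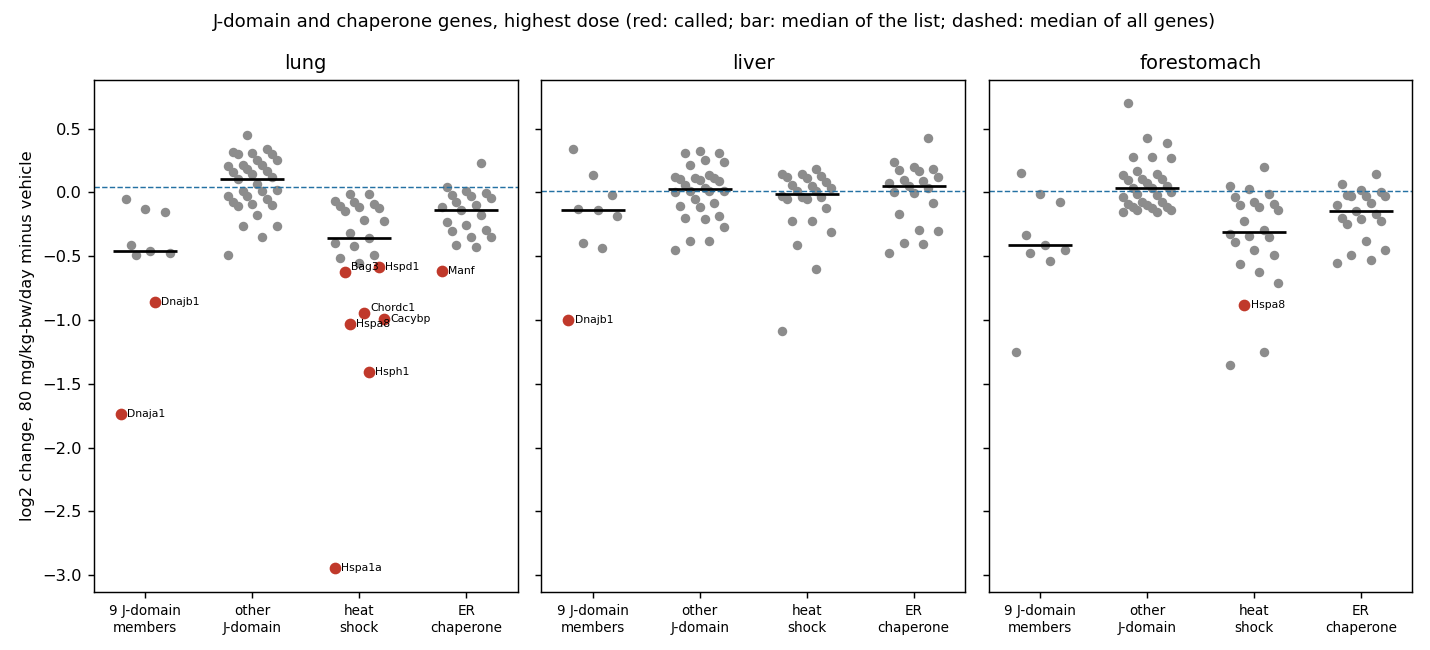
Log2 change at 80 mg/kg-bw/day from the vehicle group for each tested gene of 4 lists (brightest probe per gene) in the 3 tissues; red points are called, bars are list medians and the dashed line is the median of all genes tested. In lung the red points run from Hspa1a at -2.95 up to Hspd1 at -0.59, and the list of other J-domain genes has none. Of all genes tested in lung 0.475% were called lower and 1.8% higher.

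Across the 20 lung arrays, the genes whose log2 ratio ran most like Dnaja1 were Hspa1a (Pearson r = 0.987), Hspa8 (0.948), Chordc1 (0.944), Cacybp (0.938) and Cct5, a chaperonin subunit (0.919), out of 14531 others. For Dnajb1 they were Bag3, a co-chaperone of Hsp70 (0.907), Dnajb4 (0.866), Hspa1a (0.865), Aimp2 (0.865) and Hspb8, a small heat shock protein that pairs with Bag3 (0.849). Among the members, Dnajb9 and Dnajb1 stood nearest to Dnaja1 (0.843 and 0.840) and Dnajb6 farthest (0.110). The 20 points share their dose groups, slides and scaling, so these values are a description.

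In the vehicle mice several members differed between tissues. Dnaja4 was the clearest, at 4.63 ± 0.21 (SD, n = 5) in lung, 3.19 ± 0.35 (n = 4) in forestomach and 2.53 ± 0.19 (n = 5) in liver. Lung and liver differed by 2.10 (4.30-fold; limma, adjusted p = 3.96e-16), lung and forestomach by 1.44 (adjusted p = 1.23e-09), and liver and forestomach by -0.66 (adjusted p = 0.00108). The liver and forestomach difference fell under the fold threshold without forestomach mouse 3, at -0.53, and in the authors' table, at -0.48. The dimmer Dnaja4 probe differed between lung and forestomach by only 0.21.

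Dnaja1 ran from 1.52 ± 0.37 (SD, n = 5) in lung through 0.98 ± 0.20 (n = 5) in liver to 0.15 ± 0.49 (n = 4) in forestomach. Forestomach was lower than lung by 1.38 and lower than liver by 0.83 (limma, adjusted p = 4.6e-07 and 0.000793), although the highest forestomach array overlapped the lowest liver array, and the second probe gave 1.01 and 0.87. Lung and liver were 0.54 apart, under the fold threshold, with overlapping arrays. Dnajb1 had another order. It was 0.81 ± 0.51 (SD, n = 4) in forestomach, 0.53 ± 0.31 (n = 5) in lung and -0.30 ± 0.22 (n = 5) in liver, and liver was lower than both (by 1.11 and 0.83; limma, adjusted p = 3.15e-08 and 2.96e-06), while lung and forestomach overlapped (adjusted p = 0.144).

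The means of the ER members ran from liver through lung to forestomach by their brighter probes, and the arrays of liver and lung overlapped for both genes. Dnajb9 was 2.64 ± 0.54 (SD, n = 5) in liver, 1.97 ± 0.19 (n = 5) in lung and 0.70 ± 0.20 (n = 4) in forestomach. It was higher in liver than in forestomach by 1.93 (3.82-fold; limma, adjusted p = 4.4e-13) and than in lung by 0.67 (adjusted p = 0.000805), a call that was lost without liver mouse 3, when the difference was 0.49. Dnajc3 was 3.101 ± 0.35 (SD, n = 5) in liver, 2.58 ± 0.23 (n = 5) in lung and 1.73 ± 0.25 (n = 4) in forestomach, and liver exceeded forestomach by 1.38 and lung exceeded forestomach by 0.85 (limma, adjusted p = 3.74e-12 and 1.41e-06). Liver and lung were 0.52 apart for Dnajc3 (1.44-fold), under the fold threshold and not called.

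Dnaja2, Dnajb2 and Dnajb4 were not called between any tissues by their brighter probes. Dnajb4 was 0.42 ± 0.17 (SD, n = 5) in lung, 0.39 ± 0.17 (n = 5) in liver and 0.13 ± 0.54 (n = 4) in forestomach, and no pair was called. Dnaja2 spanned -0.29 to 0.08 across the tissues, but its second probe was higher in liver than in lung by 0.83 and than in forestomach by 0.77 (limma, adjusted p = 6.49e-10 and 2.17e-08), so the probes disagree on this gene. By the brightest probe of each gene, 3 members were called higher and 1 lower in lung than in liver (30.9% and 24.6% of all genes), 4 higher and none lower in lung than in forestomach (20.9% and 18.5%), and 3 higher and 3 lower in liver than in forestomach (23.8% and 27%). Over probes, 7 of 16, 6 of 17 and 11 of 16 were called, where 50.6%, 31.8% and 44.9% of all probes were. The vehicle arrays used here also entered the dose contrasts. With median scaling the member probes called were 1, 2 and 7, the median of all probes moved by 0.19, -0.38 and -0.67, and the share of all called probes that were lower in the first tissue went from 45% to 34.9%, from 47.1% to 78.5% and from 53.9% to 86.4%. Of the differences of brightest probes, those that were still called then were Dnaja4 between lung and liver, and Dnaja4, Dnajb1, Dnajb6 and Dnajb9 between liver and forestomach.

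**Figure D3:**
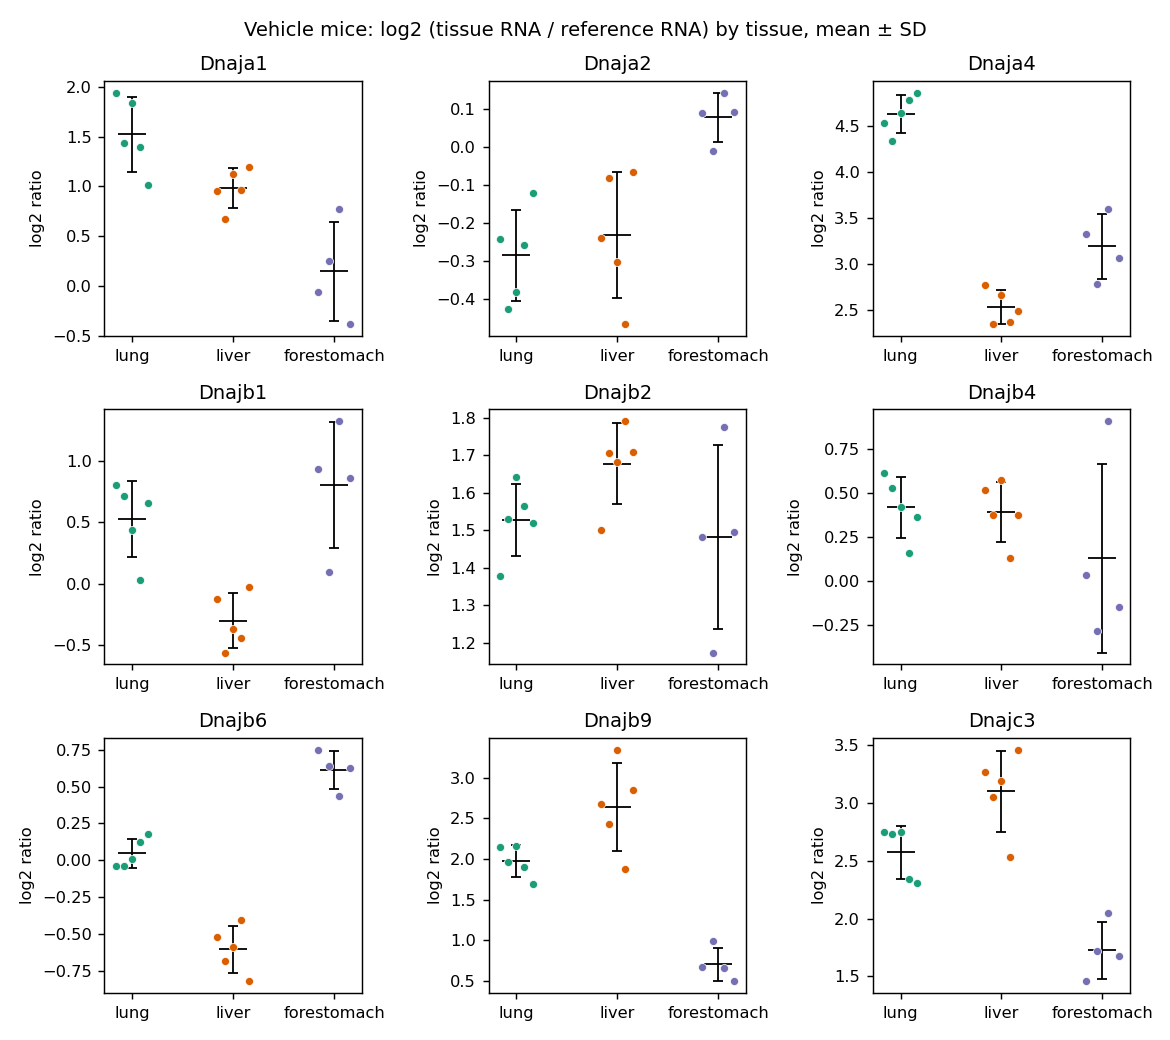
Log2 ratio of tissue to reference RNA of the brightest probe of each member on every vehicle array, by tissue; bars are means and whiskers SD, and each panel has its own scale. Lung is highest for Dnaja4, liver is highest for Dnajb9 and Dnajc3 and lowest for Dnajb1 and Dnajb6.

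Dnajb2 and Dnajb6 were the members whose probes the array lists under different RefSeq transcripts, and the probes of these genes gave different tissue patterns. Probe and transcript cannot be told apart here: Dnajb2 has 1 probe for each transcript, and the paired probes of Dnaja2 and Dnaja4, listed under 1 transcript each, also disagreed between tissues. Both Dnajb6 probes of NM_001037940 were lowest in liver and highest in forestomach, at -0.61 ± 0.16 (SD, n = 5) and 0.61 ± 0.13 (n = 4) for the brighter one, with 0.05 ± 0.10 (n = 5) in lung. The liver and forestomach differed by -1.22 and -0.98 for these 2 probes (limma, adjusted p = 2.88e-14 and 2.34e-10). Lung was higher than liver by 0.65 for the brighter probe (limma, adjusted p = 1.8e-07), and lower than forestomach by 0.60 for the other (adjusted p = 2.14e-05), while the brighter one missed the fold threshold there at -0.57. The 2 probes of NM_001037941 differed by 0.20 and 0.05 between the same tissues and were not called (limma, adjusted p = 0.0683 and 0.641). The mean of the first pair minus the mean of the second, taken on each array, was -0.81 ± 0.16 (n = 5) in liver, -0.20 ± 0.24 (n = 5) in lung and 0.42 ± 0.25 (n = 4) in forestomach. The tissues came from the same mice, and within mice this difference was higher in lung than in liver by 0.61 ± 0.21 (SD) in 5 of 5 mice, lower in liver than in forestomach by 1.19 ± 0.28 in 4 of 4, and lower in lung than in forestomach in 4 of 4. An exact two-sided sign-flip permutation test gave p = 0.0625 for 5 mice and p = 0.125 for 4, the smallest that these numbers of mice allow (adjusted p = 0.15 over 6 tests), so none passed the threshold and none could have.

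For Dnajb2, the probe of NM_020266 read 1.53, 1.68 and 1.48 on average in lung, liver and forestomach, and no pair was called. The probe of NM_178055 read 0.51, 1.31 and 0.63 and was higher in liver than in lung by 0.80 and than in forestomach by 0.68 (limma, adjusted p = 1.18e-07 and 1.12e-05). The difference between the 2 probes was 1.01 ± 0.20 (SD, n = 5) in lung, 0.37 ± 0.13 (n = 5) in liver and 0.85 ± 0.14 (n = 4) in forestomach. Within mice it was higher in lung than in liver by 0.65 ± 0.14 (SD) in 5 of 5 mice, and lower in liver than in forestomach in 4 of 4. The same exact permutation test gave p = 0.0625 and p = 0.125, again the smallest possible, and p = 0.375 for lung and forestomach, where 3 of 4 mice went the same way. At D3 the dose changes of the 4 Dnajb6 probes in liver were 0.34 and 0.37 for the first transcript and 0.25 and 0.17 for the second. The sequences of the probes were not used here, so which other transcripts each could bind was not examined.

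**Figure D4:**
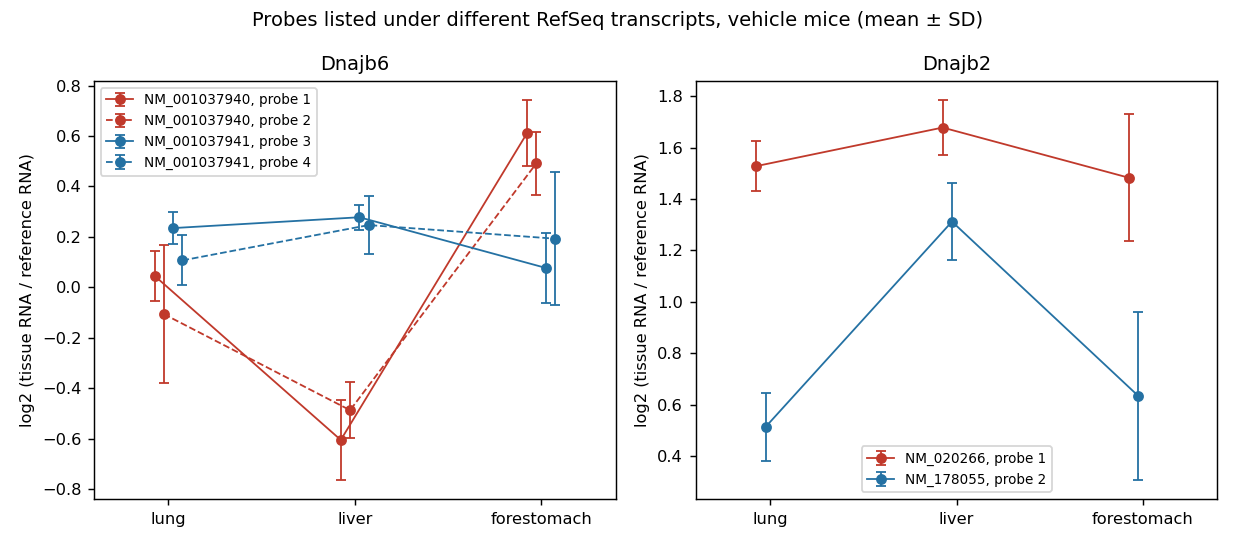
Mean log2 ratio of tissue to reference RNA, with SD, for each Dnajb6 and Dnajb2 probe in the vehicle mice, by tissue; colours mark the RefSeq transcript the array lists for the probe and dashed lines a second probe of a transcript. The red Dnajb6 probes drop to -0.61 and -0.49 in liver while the blue ones stay between 0.08 and 0.28 in all 3 tissues.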

How the data were processed

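Gene expression in lung, liver and forestomach of 20 mice was measured on 58 2-colour Agilent arrays of 62976 spots. The authors deposited the scanner output of each array, read with Feature Extraction 10.7.3.1, which gives the intensity of each spot in both dyes, and a table of normalized log2 ratios. The median intensities were used here without background correction. Control spots and spots flagged as outliers (0.495%) were given no weight, ratios were normalized within arrays by loess, and spots of a probe were averaged (limma 3.58.1, R 4.3.3). The deposited log2 ratios were an alternative; over all probes it correlated with these ratios at 0.995 to 0.998 per array, and at the members the largest difference was 0.381. Gene symbols came from the array's accessions, which matched for 26413 of 55681 probes.

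Probes whose Cy5 signal was well above background on 4 or more arrays of a tissue were tested with limma, which stands in for the MAANOVA test that the study's methods name, with a model for each tissue for doses and a model of all 12 groups for differences between tissues. Each array is 1 mouse, and the number of arrays limits the precision. Calls needed a p-value of 0.05 or less after Benjamini-Hochberg adjustment and a fold of at least 1.5; the code was tested on simulated data. Differences between probes of different transcripts were compared within mice by an exact sign-flip permutation test, which was added after seeing the data. A gene is represented by its brightest probe on average. Every member probe is reported; of each other list, the 3 called genes of largest change at D3 are named, and for Dnaja1 and Dnajb1 the 5 genes of highest correlation. The members and the gene lists were chosen with earlier results of these data known.

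The labels give the same mouse number to the tissues of 1 animal. Deviations from the group means of the same mouse correlated at a median of 0.125 (lung and liver), 0.109 (lung and forestomach) and 0.062 (liver and forestomach), against -0.039, -0.028 and -0.013 for other mice. Liver of mouse 20 and forestomach of mouse 5 were not analysed here. Alternatives were normexp background correction, the deposited table, median centring, no filter, slide or mouse as a block, no minimum fold, single channels and leaving out each array. A random slide block and leaving out arrays with markers of other tissues were added after seeing the data.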

Additional observations from a re-analysis of the deposited data

Results flagged for a closer look

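In 3 of 108 groups of 4 or 5 arrays 1 member value lay far from the others by Dixon's test, which chance gives in about 1 of 20 groups. Dnaja4 read 2.33 in the D1 forestomach of mouse 10, against 2.92 to 3.15 in the other 4. Dnajc3, the ER co-chaperone, read 3.15 in the D3 liver of mouse 16, against 2.49 to 2.60, and 1.55 in the D3 forestomach of mouse 20, against 1.13 to 1.25. The D3 change of Dnaja1 was 1.61 log2 units lower in lung than in liver (a difference of -1.61), from changes of -1.74 and -0.13. In the Cy5 channel alone these 2 changes were -1.61 and -0.29. By its brighter probe Dnaja2 had a change of -0.16 in lung, with all 5 D3 arrays below the D0 mean, and of 0.14 in liver, with all 4 above it. That difference of -0.29 stood out only because the arrays moved opposite ways, and it is given without a test. Within liver slides the change was -0.09, 0.37 and 0.06. The second Dnaja2 probe did not move opposite ways. Its means rose from -0.16 to 0.02 in lung and from 0.66 to 0.87 in liver, a difference in change of -0.02.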

How the results depend on the processing

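The number of member probes called stayed equal to or within 1.5 times of the main count with normexp background correction, the deposited table or no filter on dim probes. In the deposited table the Dnaja4 difference between vehicle liver and forestomach, at -0.48, was no longer called. With mouse as a replicate block, which pairs the tissues of an animal, the counts between tissues stayed at 7, 6 and 11 for vehicle mice and at 2, 0 and 0 for D3 changes, and no other call changed. With a random slide block the vehicle counts were within 1.5 times of these; slide as a fixed term could not be fitted there, because each slide held 1 tissue.

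Median centring changed the most. It gave 0 called probes in lung at D2 and 0 at D3, 0 for the D3 change between lung and liver, and 1, 2 and 7 for vehicle lung against liver, lung against forestomach and liver against forestomach; 9 of 14 vehicle differences and 35 of 81 dose changes moved with it, and no called change turned its sign. Relative to the median of all probes, uncalled changes of Dnajb6 and Dnajc3 (lung D1), Dnaja2, Dnajb2 and Dnajb6 (lung D2), Dnajb2 and Dnajb6 (lung D3) and Dnajb1 (forestomach D2) changed sign. Slide as a fixed block gave 1 called D3 difference, Dnajb1, for lung against forestomach and 1 for liver against forestomach. With no minimum fold the lung counts were 5 at D2 and 7 at D3. The genes called at D2 were Dnaja1, Dnaja4, Dnajb1 and Dnajb4, and at D3 also Dnajb9 and Dnajc3. Leaving out each array in turn gave 0 to 1 in lung at D1, where Dnaja1 was called without D0 mouse 5. For D3 changes it gave 1 to 2 between lung and liver (1 without D3 liver mouse 17), 0 to 1 between lung and forestomach and 0 to 1 between liver and forestomach (Dnajb1, without D0 forestomach mouse 3). The cause of these moves was not tested. Dim probes limit what can be seen, most of all in liver, where 32.8% to 44.7% of probes were well above background.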
